A study of Mus musculus with 31 samples.

Results

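A set of 7 genes that mouse epidermis uses under stress were followed in skin: the keratins Krt6a, Krt6b, Krt16 and Krt17, the small proline-rich proteins Sprr1a and Sprr1b, and the stefin Stfa3. Their probe sets were taken by gene symbol, as those that name one of these genes and no other. They are 7 of the 18193 genes measured, and were chosen with earlier results of these data known. The data are 31 Affymetrix arrays of whole skin from C3H/HeJ mice, in a study of JAK inhibitors put on the skin of mice with established AA, read here as alopecia areata, the autoimmune loss of hair. There were 3 arms: PBS as the control, an inhibitor labelled jak1i and an inhibitor labelled jak3i. Each arm had 3 arrays before treatment (0 weeks), 3 at 6 weeks and 3 at 12 weeks, and the jak1i and jak3i arms had 2 arrays each at 24 weeks; PBS at 24 weeks was not analysed here. All mice, PBS included, carried the disease as the title gives it, so no healthy skin stands beside them. The labels name neither compound nor dose, and do not say whether one mouse was sampled at several times. The series text calls the arrays of a time point biological replicates.

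Keratins are the filament proteins of epithelial cells and work in pairs of a type II and a type I chain. Krt6a and Krt6b (type II) pair with Krt16 and Krt17 (type I); in resting skin they are found mainly in the hair follicle, its companion layer and the nail, and keratinocytes between the follicles switch them on after wounding, in psoriasis and in other inflammation. Small proline-rich proteins are cross-linked by transglutaminases into the cornified envelope, the protein shell of a dead surface cell, and Sprr1 genes are known as stress-induced. Stefins are cysteine protease inhibitors that block cathepsins inside cells, and the mouse Stfa genes are known from inflamed epidermis and from neutrophils. Janus kinases (JAKs) pass the signal of interferons and many interleukins from their receptors to STAT factors.

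In the GRCm38.p6 annotation Krt6a (chr15:101689928-101694305) and Krt6b (chr15:101676023-101680293) are neighbours, as are Krt16 (chr11:100246091-100248902) and Krt17 (chr11:100256215-100261029). Sprr1a lies at chr3:92483954-92485881, Sprr1b at chr3:92436808-92438817 and Stfa3 at chr16:36450537-36455392; all 7 genes are annotated as protein coding. Krt6a had 3 probe sets, Krt17 had 2 and the others 1 each, and the probe set of highest mean stands for a gene. The 3 Krt6a probe sets took the same sign in 23 of 24 comparisons and the 2 of Krt17 in 22 of 24. Krt6a and Krt6b, and the genes within the Sprr and Stfa families, are close copies, and how far a probe set reads a neighbour's RNA was not tested.

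RefSeq promoter windows on the same build were at hand for 3 of the 7 genes, and they are shown because both Sprr1 genes, and not Stfa3, hold the letters bound by AP-1, the Fos and Jun factor pair known to drive stress genes of keratinocytes. Each is written 5' to 3' on the minus strand, up to the gene start, with matches to TGANTCA, which reads the same on both strands, in capitals.
Sprr1a (chr3:92485882-92486131): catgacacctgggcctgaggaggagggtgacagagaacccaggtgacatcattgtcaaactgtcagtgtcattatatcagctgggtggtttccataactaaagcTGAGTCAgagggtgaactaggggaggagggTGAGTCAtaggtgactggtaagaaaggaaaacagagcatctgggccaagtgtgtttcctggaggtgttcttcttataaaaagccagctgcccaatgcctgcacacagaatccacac
Sprr1b (chr3:92438818-92439029): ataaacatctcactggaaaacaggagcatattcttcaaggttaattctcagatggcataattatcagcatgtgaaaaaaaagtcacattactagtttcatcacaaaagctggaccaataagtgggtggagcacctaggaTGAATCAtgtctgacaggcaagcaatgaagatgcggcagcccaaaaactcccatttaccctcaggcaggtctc
Stfa3 (chr16:36455393-36455642): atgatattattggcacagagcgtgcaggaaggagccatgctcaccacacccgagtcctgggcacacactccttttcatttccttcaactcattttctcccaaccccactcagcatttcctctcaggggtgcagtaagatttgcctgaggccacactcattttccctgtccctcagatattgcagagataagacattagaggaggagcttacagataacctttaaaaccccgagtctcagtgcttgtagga
TGAGTCA starts 146 and 116 bases before the start of Sprr1a. In Sprr1b, TGAATCA starts 111 bases before the end of the full window of 250 bases. The last 38 bases of that window lie inside the annotated gene and are not shown. The match is thus nearer to the annotated gene start than 111 bases. Of 32851 promoter windows of 250 bases, 6.75% hold TGANTCA. A STAT site (TTCNNNGAA, in 7.02% of windows) and an interferon-stimulated response element (GAAA, any 2 bases, GAAA on either strand, in 2.98%) have no match in these 3 windows. A match is a stretch of letters only, and these data hold no measure of binding.

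The values are log2 RMA intensities, so a log2 difference of 1 is a fold of 2. Array medians ran from 6.05 to 6.24, and the lowest correlation between arrays of a group was 0.966. The keratinocyte markers Krt5, Krt14 and Krt10 averaged 13.24, 13.71 and 14.20 over the 31 arrays. Hair shaft genes varied within groups, with a list mean (log2, each gene centred on its 31-array mean) from -2.35 to 2.74 at 6 weeks of jak1i and from -2.64 to 3.32 at 6 weeks of jak3i. The skeletal muscle list mean was -5.88 to -2.71 in PBS skin at 12 weeks, against -0.56 to 1.53 in all other arrays. In whole skin, fewer cells of a type and less RNA per cell cannot be told apart. Comparisons were tested in one limma fit, and a gene was called at a Benjamini-Hochberg adjusted p under 0.05 over all 18193 genes; SE is that of the fit.

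**Figure D1:**
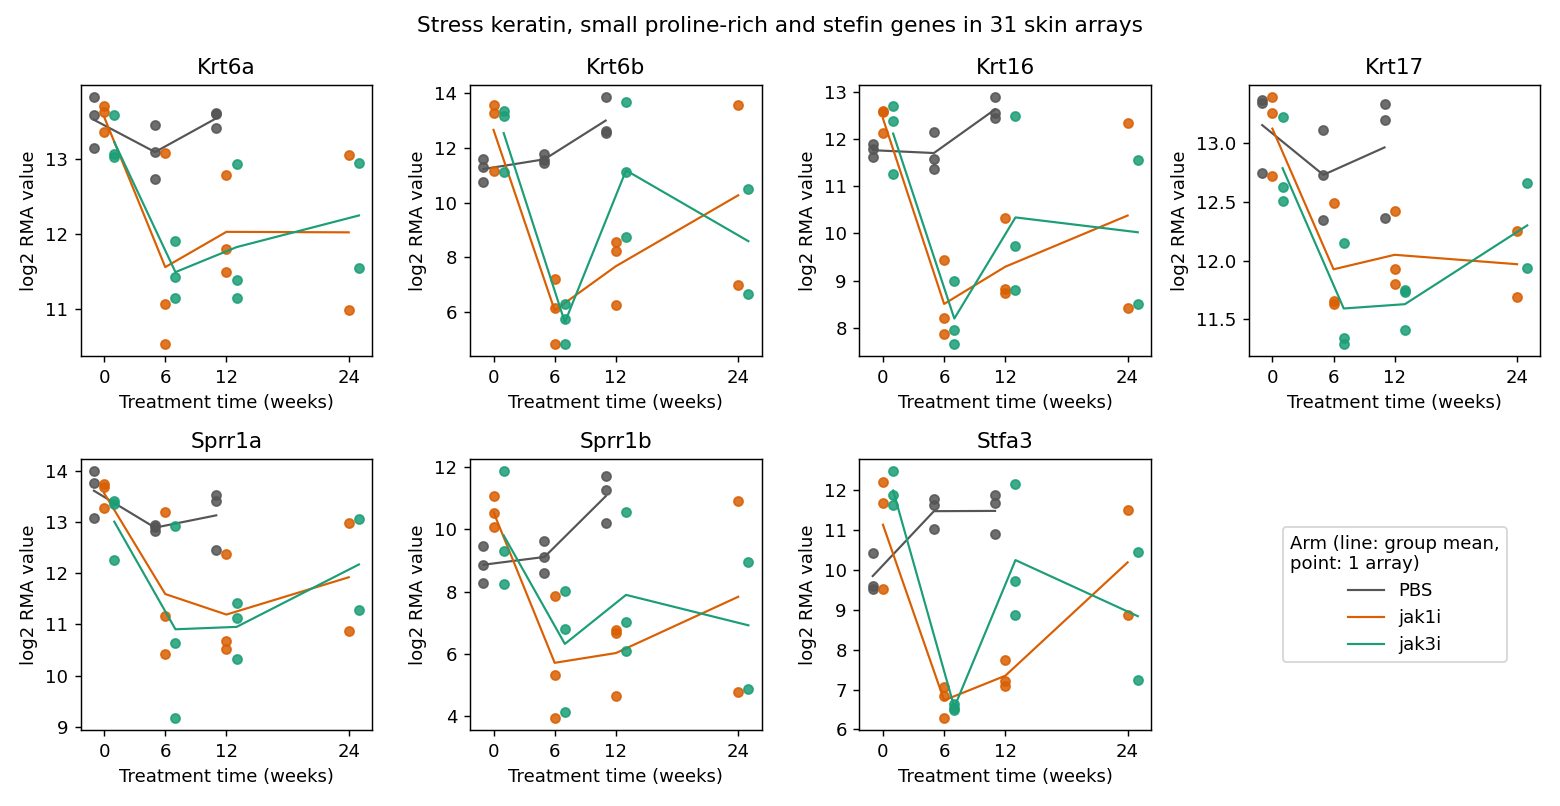
Log2 RMA value (vertical axis) of each of the 7 genes against treatment time in weeks (horizontal axis, arms set slightly apart); each point is 1 array and each line joins the group means. The Stfa3 arrays of both inhibitor arms at 6 weeks sit between 6.29 and 7.07, below all 15 arrays without inhibitor, and at 24 weeks the 2 arrays of each arm lie apart.

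Without inhibitor (9 PBS arrays and 6 arrays of the inhibitor arms before treatment) the 7 genes were high in skin. Krt6a had a median of 13.45, Sprr1a 13.35, Krt17 13.11, Krt16 12.16, Krt6b 11.77, Stfa3 11.62 and Sprr1b 9.64. Intensities of different probe sets do not rank the genes against each other. With inhibitor (16 arrays), 13 arrays of Krt6b, Krt16, Krt17 and Sprr1b, 12 of Stfa3 and 11 of Krt6a and Sprr1a were below the lowest array without it. The same count was not made for all genes. Within the 15 arrays the spread differed by gene: Krt17 covered 1.04 and Krt6a 1.09, while Krt6b covered 3.10 and Sprr1b 3.63.

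In the PBS arm no member passed the test between 0 and 6 or 0 and 12 weeks, where limma called 0.0055% and 1.39% of all genes higher. The smallest adjusted p of a member was 0.509 at 6 weeks and 0.305 at 12 weeks. At 12 weeks the 3 arrays of Krt6b, Krt16, Sprr1b and Stfa3 were nonetheless all above the 3 at 0 weeks, with differences of 1.78, 0.87, 2.20 and 1.63. Groups without overlap and higher made up 15.7% of all genes in that comparison. Some members did not overlap between arms at the start, though none passed the test. In jak1i before treatment Krt16 (12.58, 12.14 and 12.60) and Sprr1b (10.53, 10.06 and 11.06) lay wholly above PBS at 0 weeks (11.62, 11.89 and 11.79 for Krt16, 8.86, 9.45 and 8.28 for Sprr1b), as did 7.72% of all genes. Those differences of 0.67 and 1.69 did not pass (adjusted p = 0.999 for both). For Stfa3, PBS skin at 0 weeks read 10.42, 9.52 and 9.60, while the jak3i arm before treatment read 11.87, 11.62 and 12.48, without overlap like 8.78% of all genes. That difference of 2.15 (SE 0.78, 95% interval 0.52 to 3.77) did not pass limma's test (adjusted p = 0.58), and no gene of the whole table was called between the arms at 0 weeks (917 and 1378 genes had an unadjusted p under 0.05 in jak1i and jak3i).

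Krt6b, like Krt6a an inducible type II keratin, differed most of the 7 genes from PBS at 6 weeks. PBS arrays read 11.77, 11.56 and 11.44 at 6 weeks, jak1i arrays 4.82, 7.21 and 6.14, and jak3i arrays 4.83, 5.73 and 6.30. All 6 inhibitor arrays lay over 4 units below the lowest PBS array. Krt6b fell in jak1i (log2 difference -5.53, SE 1.29, adjusted p = 0.0344, limma) and in jak3i (-5.97, SE 1.29, adjusted p = 0.0176). Its means of 6.06 and 5.62 at 6 weeks of jak1i and jak3i lie under the median of all values (6.177), near the dim end of the array, where a log2 difference gives no exact fold. Over the series 27 of 31 Krt6b arrays were above that median. The jak1i call was lost without jak1i array 1 or 3 or PBS array 2 or 3 (adjusted p = 0.197, 0.0901, 0.131 and 0.134), and the jak3i call without PBS array 2 or 3 (0.0842 and 0.0723). At 12 weeks PBS read 12.61, 13.86 and 12.55, jak1i 6.25, 8.22 and 8.55, and jak3i 8.75, 11.11 and 13.69. One jak3i array was thus at the PBS level. Krt6b was lower in jak1i (-5.33, SE 1.29, adjusted p = 0.0116; 0.0551 without jak1i array 1) and did not pass in jak3i (-1.82, 95% interval -4.50 to 0.86, adjusted p = 0.338).

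Krt16 is the type I partner of Krt6. At 6 weeks PBS read 11.59, 12.16 and 11.37, jak1i 7.87, 9.44 and 8.20, and jak3i 7.65, 7.94 and 8.99, with no overlap between PBS and either inhibitor. The fall passed in jak3i (-3.52, SE 0.87, adjusted p = 0.0371) and the similar difference in jak1i did not (-3.21, SE 0.87, adjusted p = 0.0688). The jak3i call held without PBS array 1 and was lost without any other of the 6 arrays (adjusted p up to 0.191). At 12 weeks PBS read 12.55, 12.89 and 12.46, jak1i 8.73, 10.33 and 8.82, and jak3i 8.79, 9.73 and 12.50. Krt16 fell 10.1-fold in jak1i (-3.34, SE 0.87, adjusted p = 0.0162); the call was lost without jak1i array 1 or 3 or PBS array 3 (adjusted p = 0.063, 0.0638 and 0.0605). In jak3i array 3 overlapped PBS, and the difference of -2.30 did not pass (adjusted p = 0.0697); without that array it was -3.38 and passed (adjusted p = 0.016).

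Krt6a, a keratin of the companion layer, and Krt17, a type I keratin of follicles and stressed epidermis, had smaller differences. Krt6a read 13.60, 13.41 and 13.61 in PBS at 12 weeks, 11.80, 12.79 and 11.49 in jak1i and 11.15, 11.39 and 12.93 in jak3i. Both inhibitor groups lay wholly below PBS. Only jak3i passed (-1.72, SE 0.56, adjusted p = 0.0395; jak1i -1.51, adjusted p = 0.0743). The jak3i call was lost when 5 of the 6 compared arrays were left out one at a time (adjusted p up to 0.163), and was kept without jak3i array 3 (adjusted p = 0.0176). With p adjusted over all probe sets, the 3 Krt6a probe sets gave -1.51, -1.86 and -2.12 in jak1i (adjusted p = 0.0854, 0.0527 and 0.0472) and -1.72, -1.99 and -2.31 in jak3i (adjusted p = 0.0469, 0.0354 and 0.0292). All 3 thus passed in jak3i and 1 of 3 in jak1i.

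Krt17 read 13.20, 12.36 and 13.33 in PBS at 12 weeks, 11.93, 12.42 and 11.80 in jak1i and 11.75, 11.41 and 11.73 in jak3i. The jak3i arrays were the lower set here, all below PBS, while jak1i array 2 reached into the PBS range. Krt17 fell 2.52-fold in jak3i (-1.33, SE 0.31, adjusted p = 0.00907; 0.0545 without PBS array 3), and the jak1i difference of -0.91 did not pass (adjusted p = 0.0564). At 6 weeks it did not pass in either arm (-0.80 and -1.13, adjusted p = 0.2 and 0.0618).

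Sprr1b, a precursor of the cornified envelope, read 10.21, 11.70 and 11.27 in PBS at 12 weeks, 4.66, 6.67 and 6.76 in jak1i and 6.11, 7.02 and 10.56 in jak3i. It fell in jak1i (-5.03, SE 1.41, adjusted p = 0.022; 0.0937, 0.0509 and 0.088 without jak1i array 1 or 3 or PBS array 3) and did not pass in jak3i (-3.16, 95% interval -6.07 to -0.25, adjusted p = 0.118). At 6 weeks PBS read 8.59, 9.64 and 9.11, jak1i 3.95, 7.86 and 5.34, and jak3i 8.02, 4.14 and 6.81. Inhibitor arrays were all below PBS but scattered over nearly 4 units in each arm, and neither difference passed (-3.40 and -2.79, adjusted p = 0.216 and 0.321). Sprr1b was above the median of all values (6.177) in 24 of 31 arrays, and its jak1i mean at 12 weeks (6.03) was under it, so no fold is given.

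Sprr1a, its neighbour on chromosome 3, read 13.40, 12.46 and 13.52 in PBS at 12 weeks, 10.68, 12.37 and 10.53 in jak1i and 11.13, 10.32 and 11.41 in jak3i. Every inhibitor array was below every PBS array, and neither difference passed (-1.94 and -2.17, adjusted p = 0.0935 and 0.0528). At 6 weeks 1 array of each inhibitor arm was within or above the PBS range: PBS read 12.89, 12.94 and 12.83, jak1i 10.43, 13.19 and 11.16, and jak3i 12.91, 9.18 and 10.63. Those were the arrays with the highest hair shaft list means of their groups, 2.74 and 3.32. Without the jak3i array Sprr1a was called (-2.99, adjusted p = 0.024); without the jak1i array it was not (-2.09, adjusted p = 0.126).

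For Stfa3 the inhibitor arrays at 6 weeks lay close together. PBS read 11.77, 11.03 and 11.62, jak1i 6.29, 6.83 and 7.07, and jak3i 6.50, 6.53 and 6.64. The jak3i arrays differed by an SD of 0.07, and whether their low level narrows that spread was not tested. Stfa3 fell in jak1i (-4.74, SE 0.78, adjusted p = 0.00467) and in jak3i (-4.92, SE 0.78, adjusted p = 0.00386). Its means of 6.73 and 6.56 at 6 weeks of jak1i and jak3i lie little above the median of all values (6.177), so no fold is given there. At 12 weeks PBS read 11.67, 11.87 and 10.90, jak1i 7.22, 7.09 and 7.73, and jak3i 8.87, 9.71 and 12.16. It fell 17.5-fold in jak1i (-4.13, SE 0.78, adjusted p = 0.003) and did not pass in jak3i (-1.23, 95% interval -2.86 to 0.39, adjusted p = 0.28). The calls at 6 weeks in jak3i and at 12 weeks in jak1i held whichever of the 6 arrays was left out; that at 6 weeks in jak1i was lost only without jak1i array 1 (adjusted p = 0.052). Neutrophil genes, listed because neutrophils hold stefins, were not called in either arm at 6 weeks (0 of 11). Few genes were, with 1.22% of all genes lower in jak1i and 1.5% in jak3i. The neutrophil list mean at 6 weeks was -0.21 to 0.73 in PBS, -0.69 to -0.22 in jak1i and -0.6 to -0.3 in jak3i. At 12 weeks 4 of the 11 were lower in jak1i (6.51% of all genes) and 1 in jak3i (7.28%), the latter near that share. The part of neutrophils in the Stfa3 result was not tested.

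**Figure D2:**
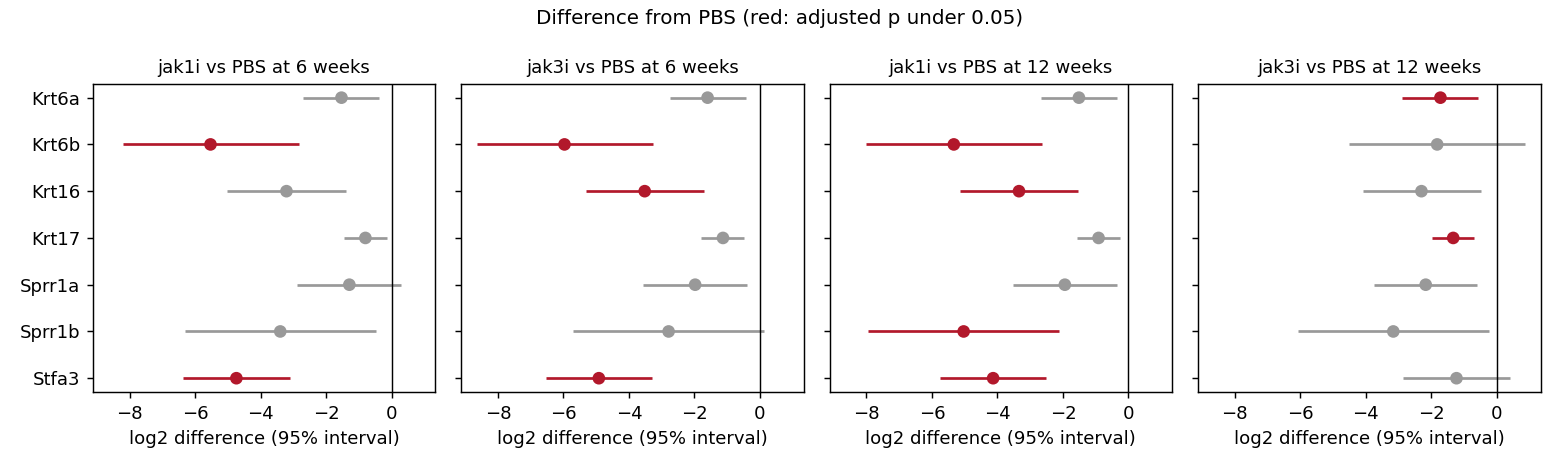
Log2 difference between each inhibitor arm and PBS (horizontal axis, points) with its 95% interval (lines) for the 7 genes, in 4 comparisons; red marks an adjusted p under 0.05. All points lie left of 0, and Krt6b and Stfa3 are red in the first 3 panels and grey in jak3i at 12 weeks.

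Counted together, 2 of the 7 genes were called lower than PBS in jak1i at 6 weeks (1.22% of all genes were), 3 in jak3i at 6 weeks (1.5%), 4 in jak1i at 12 weeks (6.51%) and 2 in jak3i at 12 weeks (7.28%). Groups without overlap and lower than PBS were found for 4, 6, 6 and 3 of the 7 genes, against 8.79%, 7.93%, 18.9% and 19.7% of all genes. The median of the 7 differences was -3.21, -2.79, -3.34 and -1.82, where the median of all genes was 0.04, 0.02, -0.03 and -0.03. The counts moved with single arrays left out. Shares of all genes are given for the main fit only, so a loss of calls over all genes would look the same. In jak1i at 6 weeks the count was 0 without jak1i array 1, 4 without array 2, and 1 without array 3 or PBS array 2 or 3; in jak3i it was 1 without PBS array 2 or 3. In jak1i at 12 weeks it was 1 without jak1i array 1 and 2 without array 3 or PBS array 3. In jak3i at 12 weeks it was 4 without jak3i array 3, 1 without array 1 or 2 or PBS array 1, and 0 without PBS array 3. The PBS arrays of 6 weeks hold muscle RNA like the inhibitor arrays. With them as control, 1 gene (Stfa3) was called in jak1i at 12 weeks and none in jak3i. With hair shaft genes, by their mean, as a term of the fit the counts were also 1 and 0. With muscle genes as that term they were 0 and 0. The muscle list mean sets PBS at 12 weeks apart from all other arrays. As a term it nearly stands for that group and leaves little of the comparison to test, so these 0 counts decide nothing. Both inhibitors were set against the same PBS arrays. The 7 genes were chosen with earlier results of these data known, so their excess over the shares of all genes is no independent evidence.

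Each arm was then set against its own start. In jak1i 6 of 7 genes were called lower at 6 weeks (6.43% of all genes) and 6 at 12 weeks (6.5%), Sprr1a being the exception at 6 weeks (adjusted p = 0.0958) and Krt6a at 12 weeks (adjusted p = 0.0647). Krt6b read 13.27, 11.15 and 13.58 before jak1i and fell by 6 weeks (-6.61, SE 1.29, adjusted p = 0.00388), to the dim readings given above, and by 12 weeks (-4.99, adjusted p = 0.0132). All 7 genes lay wholly below the start at both times, as did 13% and 19.7% of all genes. In jak3i 4 genes were called lower at 6 weeks (2.05%): Krt6b (-6.93, adjusted p = 0.00583), Stfa3 (-5.44, adjusted p = 0.00144), Krt16 (-3.93, adjusted p = 0.0179) and Krt17 (-1.19, adjusted p = 0.0414). A total of 6 were without overlap at 6 weeks and 3 at 12 weeks, against 9.64% and 17.4% of all genes. At 12 weeks Krt17 alone was called (-1.16, adjusted p = 0.0323; 2.85% of all genes). Without jak3i array 3 of 12 weeks 4 were called, Krt6a, Krt16, Krt17 and Stfa3. With the hair shaft genes as a term of the fit the counts at 12 weeks were 1 in jak1i (Stfa3) and 0 in jak3i, where Krt6b, Sprr1a and Sprr1b turned to 0.31, 0.06 and 1.2, and the count at 6 weeks in jak3i was 2. With the muscle genes as that term the counts at 12 weeks were 3 and 0. For these refits, and those with 1 array left out below, the shares of all genes are not given.

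The count of 6 in jak1i at 6 weeks was 3 without array 1 or 2 of 0 weeks or array 1 or 3 of 6 weeks. At 12 weeks it was 1 without array 1 of 0 or of 12 weeks, 3 without array 2 of 0 weeks and 2 without array 3 of 12 weeks. In jak3i the count at 6 weeks was 1 without array 2 of 0 weeks and 2 without array 2 of 6 weeks, and at 12 weeks 0 without array 1 or 2 of either time. Tested against the change in PBS over the same weeks, Stfa3 was called in both arms by 6 weeks (-6.02 in jak1i, -7.06 in jak3i, adjusted p = 0.0386 and 0.0345). By 12 weeks Krt6b (-6.77, adjusted p = 0.0309), Sprr1b (-6.72, adjusted p = 0.0439) and Stfa3 (-5.42, adjusted p = 0.0133) were called in jak1i and none in jak3i. The Stfa3 call by 6 weeks in jak3i was lost without any 1 of the 12 arrays, and that in jak1i held only without jak1i array 2 of 0 or 6 weeks or PBS array 1 of 6 weeks. The 3 calls by 12 weeks became 1 or 2 without any 1 of the 12 arrays.

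The inhibitors themselves were not told apart on these genes. At 6 weeks the 7 differences between jak1i and jak3i ran from -0.61 to 0.69. At 12 weeks all 3 jak1i arrays of Krt6b and Stfa3 were below all 3 jak3i arrays, as were those of 8.39% of all genes, with differences of -3.51 (95% interval -6.19 to -0.83) and -2.90 (-4.53 to -1.27). For Krt17 all 3 jak1i arrays were above all 3 jak3i arrays, as were those of 7.38% of all genes, with a difference of 0.42 (-0.23 to 1.07). None of the 3 passed, with adjusted p = 0.767 for Krt6b and 0.554, the smallest, for Stfa3. Apart from Krt6b and Stfa3 the intervals at 12 weeks include 0 and reach from -4.78 (Sprr1b) to 1.83 (Sprr1a). No gene of the table was called between the inhibitors at 6, 12 or 24 weeks (470, 1087 and 114 genes had an unadjusted p under 0.05). The change from 0 to 12 weeks likewise gave no call between them, and doses are not given.

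At 24 weeks each arm had 1 array at the untreated level and 1 low array, for most of the 7 genes at once. Krt6b read 13.57 and 6.97 in jak1i and 10.51 and 6.67 in jak3i. Sprr1b read 10.90 and 4.77 in jak1i and 8.96 and 4.88 in jak3i. In both arms the low array was below every array without inhibitor for all 7 genes, and the high array only for 1 gene, Krt17 in jak1i and Krt6b in jak3i. The share of all genes for which these arrays lay so low was not computed. No member was called against its own start (0.154% and 0.0165% of all genes were called lower), but 2 were in jak1i and 1 in jak3i without array 1 of 24 weeks. None was called against 12 weeks (0% and 0.033% of all genes were called higher); Stfa3 in jak1i differed by 2.85, with 95% interval 1.03 to 4.66 and adjusted p = 1. The high arrays also had the higher hair shaft list mean (0.66 against -2.82 in jak1i, 0.20 against -2.34 in jak3i) and interferon response list mean (1 against -1.24, 1.19 against -0.57); their part in the result was not tested.

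Pairs of the 7 genes differed in how closely they followed each other. Over 31 arrays Krt6b correlated most with Krt16 (r = 0.96) and Stfa3 (0.95), and Krt17 with Sprr1a (0.92), while Krt17 and Stfa3 gave 0.55. Taking each array's deviation from its group mean, which removes the differences between groups, left 0.91 for Krt6b and Krt16, 0.82 for Krt17 and Sprr1a and -0.02 for Krt17 and Stfa3; the 21 pairs ran from -0.02 to 0.91 with a median of 0.69. These values describe arrays that share their RNA and chip. Single arrays differed in this. Array 1 of jak3i at 6 weeks had Krt17 12.15 below the PBS range of that week and Sprr1a 12.91 within it. The arrays given next show the same division as the correlations. Array 3 of jak3i at 12 weeks had Krt6b 13.69, Krt16 12.50 and Stfa3 12.16, all within or above the PBS range, beside Krt17 11.73 and Sprr1a 11.41, both below it. Array 2 of jak1i at 6 weeks was the reverse, with Sprr1a 13.19 and Krt17 12.49 within or above the PBS range and Krt6b 7.21 and Stfa3 6.83 far below.

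Sprr1a followed the hair shaft list mean most closely (r = 0.87 over 31 arrays, and 0.87 for deviations within groups), and Krt16 followed the interferon response list mean (0.91 and 0.75). For Stfa3 the values were 0.50 and 0.42 with hair shaft, 0.83 and 0.55 with interferon response and 0.84 and 0.65 with the alarmin list. The alarmin list gave 0.85 and 0.71 for Krt16, and the interferon response list gave 0.84 and 0.64 for Krt6b. Krt6b gave 0.87 and 0.70 with the alarmin list, and Krt17 gave 0.90 and 0.70 with the list of cytotoxic T and NK cell genes. The hair shaft list mean was itself lower at 12 weeks, at -2.49 to -0.94 in jak1i and -3.39 to -1.05 in jak3i. In PBS it was 0.79 to 2.39. By gene, 2 of 27 were called in jak1i and 11 in jak3i. Over all genes 6.51% and 7.28% were called lower, and the hair shaft count in jak1i is near that share. Interferon response genes fell in 18 and 13 of 22, and cytotoxic cell genes in 14 and 17 of 17. Their part in the differences of the 7 genes was not tested.

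**Figure D3:**
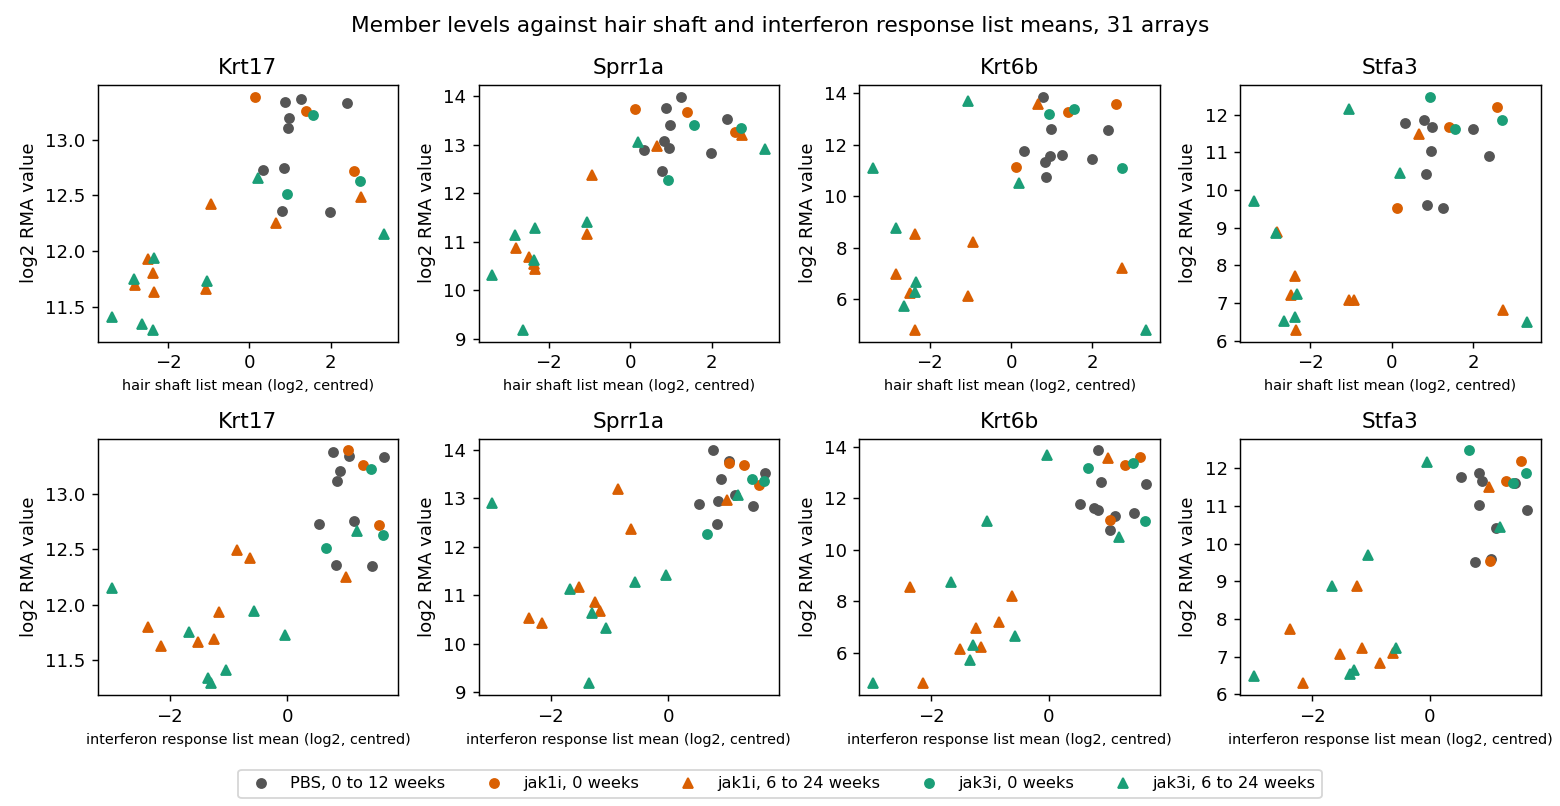
Log2 RMA value of Krt17, Sprr1a, Krt6b and Stfa3 (vertical axes) against the centred mean of the hair shaft list (top row) and of the interferon response list (bottom row), 1 point per array, 31 in each panel; triangles are arrays of 6 to 24 weeks of inhibitor. In the top row the 2 triangles at 2.74 and 3.32 are high in Sprr1a and low in Krt6b and Stfa3.

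Relatives of these genes were counted next. Of the other 7 measured small proline-rich genes, 3 fell in jak1i at 12 weeks, where 6.51% of all genes did: Sprr2d (-3.66, adjusted p = 0.021), Sprr2h (-3.39, adjusted p = 0.0255) and Sprr2k (-0.85, adjusted p = 0.0172). None was called in jak3i at 12 weeks or in either arm at 6 weeks, and their median difference was -1.98 and -0.51 at 12 weeks in jak1i and jak3i. Sprr3, an envelope protein of lining epithelia, stayed within -0.10 to 0.00 of PBS in the 4 comparisons. Of the other measured stefin genes, Stfa2l1 (-2.79 in jak1i at 12 weeks, adjusted p = 0.0705) was not called, and Cstb, the widely expressed stefin B, fell in jak3i at 12 weeks (-0.83, adjusted p = 0.0161).

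**Figure D4:**
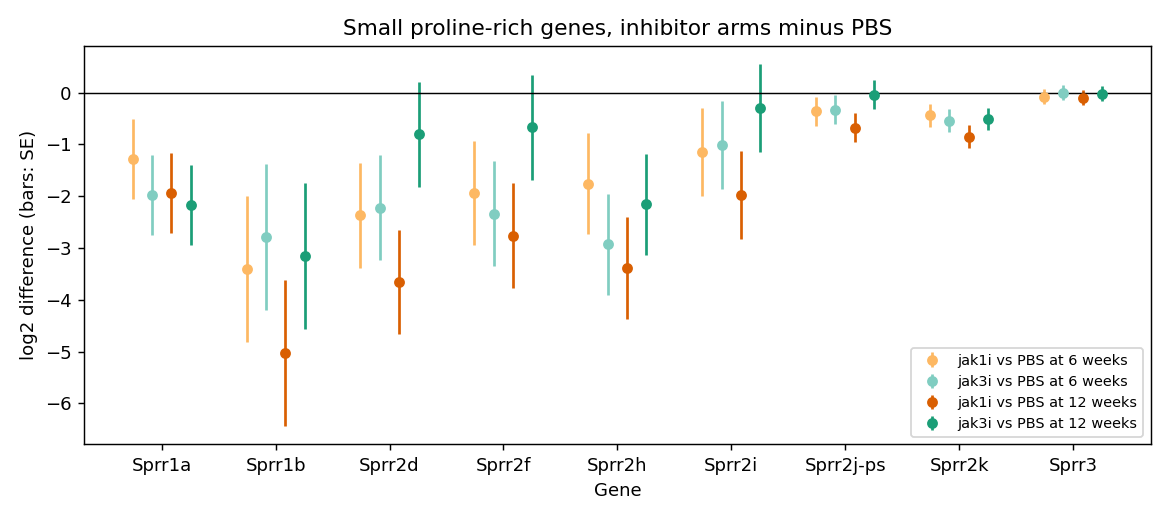
Log2 difference from PBS (vertical axis) of the 9 measured small proline-rich genes in 4 comparisons (colours); points are fitted differences and bars 1 SE. Sprr1b has the lowest point, -5.03 in jak1i at 12 weeks, and Sprr3 stays within -0.10 to 0.00.

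The keratins of ordinary epidermis and its partners were listed for comparison. Of all genes, 6.85% were called higher than PBS at 12 weeks in jak1i and 10% in jak3i. Of the 16 keratins and partners, Krt15, a keratin of basal and follicle stem cells, rose in both arms at 12 weeks (1.78 and 1.44, adjusted p = 0.00472 and 0.0134), Krt2 of the upper layers rose in jak3i (2.76, adjusted p = 0.0249) and Krt79, a keratin of the follicle funnel, fell in jak3i (-0.88, adjusted p = 0.0139). The basal pair Krt5 and Krt14 differed by -0.14 and -0.32 in jak1i and by -0.12 and -0.31 in jak3i, and Krt10 of the layers above by -0.07 and -0.06. None of these passed.

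Among upstream signals, 5 of 16 cytokines and growth factors were lower and 1 higher in jak1i at 12 weeks, and 4 and 1 in jak3i. Interferon gamma (Ifng) fell in both (-3.10 and -3.07, adjusted p = 0.00342 and 0.00318), as did the ErbB ligand Nrg1 (-0.84 and -0.85, adjusted p = 0.0159 and 0.0129). The ErbB ligand Btc rose in jak1i (1.68, adjusted p = 0.0149). Of 24 receptors and transcription factors, 2 were lower and 2 higher in jak1i, and 4 and 3 in jak3i. Over all genes 6.51% were lower and 6.85% higher in jak1i and 7.28% and 10% in jak3i, and the counts of this list in jak1i are near that background. Irf1, the interferon-induced factor, fell in both (-1.58 and -1.45, adjusted p = 0.0115 and 0.0158), and the AP-1 member Jun fell in jak3i (-0.72, adjusted p = 0.0232).

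Companion genes of stressed keratinocytes were counted too. A difference in count between the arms was not tested. Over all genes, 6.51% were called lower and 6.85% higher in jak1i at 12 weeks, and 7.28% and 10% in jak3i. In jak3i the counts of fallen genes in the lists below are close to that 7.28%. Alarmins and antimicrobial genes were called in 7 of 18 in jak1i and 2 in jak3i at 12 weeks; Slpi, a protease inhibitor of inflamed epithelium, fell in both (-2.67 and -2.36, adjusted p = 0.0136 and 0.021). The interleukin 1 receptor blocker Il1rn fell in both (-0.76 and -0.69, adjusted p = 0.0325 and 0.0427). The alarmin S100a8 did not pass (-3.35, adjusted p = 0.0737). Of 29 cornified envelope and late differentiation genes, 8 fell and 1 rose in jak1i, and 2 fell and 1 rose in jak3i; the late envelope gene Lce1g fell in both (-1.23 and -0.83, adjusted p = 0.00651 and 0.0397). Of 17 wound and proliferation genes, 5 fell in jak1i, led by the collagenase Mmp13 (-5.02, adjusted p = 0.00504), and 1 in jak3i. The proliferation markers Mki67 and Top2a did not pass in either arm (-0.68 and -0.61 in jak1i).

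The genes outside the 7 whose level over the 31 arrays was most like the members' mean were Mmp13 (r = 0.96), Oas1a (0.95), Oasl2 (0.94), Irf7 (0.94) and Ckap4 (0.94). By gene, Klk6 was most like Krt6a (0.96), Mmp13 most like Krt6b (0.92) and Krt16 (0.95), and Fam167a most like Krt17 (0.98). Slc39a2 was most like Sprr1a (0.96), Sprr2h most like Sprr1b (0.93) and H2-T24 most like Stfa3 (0.93). Gene models without a name were skipped in this ranking. The genes given are the highest over the other named genes and a description of these 31 arrays.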

How the data were processed

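Deposited values were log2 intensities that the authors made with RMA, per the submitters' processing notes (version not given in the sources used here); RMA corrects background, quantile-normalizes the arrays and summarizes probes, so shifts shared by all genes of an array are removed. Of 45101 probe sets, 34945 named 1 gene symbol in the platform annotation, 932 several and 9160 none; 1 probe set per gene, that of highest mean, left 18193 genes. One limma fit (version 3.58.1, R 4.3.3) of the 11 group means had 20 residual degrees of freedom, with Benjamini-Hochberg adjustment over all genes. The labels gave the groups. Alternatives were array centring, a dim-gene filter, the mean of probe sets, other variance models, the compared arrays alone, hair and muscle covariates, PBS at 6 weeks as control, replicate blocks and each array left out. The fit was tested on simulated data. Precision is limited by 2 or 3 arrays a group. The members and gene lists were chosen with earlier results of these data known. Genes named are the members, the most alike genes, and from each list the 3 of largest mean and the 3 of smallest adjusted p in each inhibitor arm at 12 weeks; Krt5 and Sprr3 were named after their values were seen.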

Additional observations from a re-analysis of the deposited data

How the results depend on the processing

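Counts of members called, out of 7, changed with covariates, controls and single arrays. The shares of all genes called in these refits are not given here. A change in the 7 genes can thus not be told from a change over all genes. With hair shaft genes as a covariate, by their mean, they were 1 in jak1i and 0 in jak3i against PBS at 12 weeks, 1 in jak1i and 0 in jak3i for 12 against 0 weeks, 2 in jak3i for 6 against 0 weeks, and 0 for the changes relative to PBS from 0 to 6 weeks in jak3i and from 0 to 12 weeks in jak1i; in jak3i from 0 to 12 weeks Krt6b, Sprr1a and Sprr1b turned to 0.31, 0.06 and 1.2. With muscle genes as the covariate the counts against PBS at 12 weeks were 0 in both arms (Krt17 in jak1i turned to 0.01). The muscle list mean sets PBS at 12 weeks apart from all other arrays, so this covariate leaves little of comparisons with that group to test. For 12 against 0 weeks the counts were 3 in jak1i and 0 in jak3i, and for all 3 called changes relative to PBS they were 0. PBS at 6 weeks as control gave 1 in jak1i and 0 in jak3i at 12 weeks. Fitting the compared arrays only gave 2 in jak3i for 12 against 0 weeks, 3 in both arms relative to PBS by 6 weeks, and 5 in jak1i and 1 in jak3i by 12 weeks. Arrays centred on their medians gave 0 in jak1i relative to PBS by 6 weeks. Deviations from group means correlated from -0.61 to 0.49 between same-numbered arrays of an arm, with a median of -0.05. Between differently numbered arrays they correlated from -0.55 to 0.61, with a median of 0.01. Deviations within a group of 2 or 3 arrays sum to 0, so these values cannot exclude that replicate numbers pair the arrays. The replicate block as a fixed term gave 1 call in jak3i against PBS at 12 weeks, and as a random block 0 calls in both arms relative to PBS by 6 weeks. Causes of these shifts were not tested. With 1 array left out, counts ranged from 0 to 2 in jak1i and 0 to 1 in jak3i for 24 against 0 weeks, from 0 to 1 in jak1i and at 0 in jak3i for the change relative to PBS by 6 weeks, and from 1 to 2 in jak1i and 0 to 1 in jak3i by 12 weeks; where 1 array of 24 weeks was left, it is assumed to vary like the other groups. Against PBS they ranged from 0 to 4 and 1 to 4 at 6 weeks and from 1 to 5 and 0 to 4 at 12 weeks in jak1i and jak3i, and against 0 weeks from 3 to 7 and 1 to 6 at 6 weeks and from 1 to 6 and 0 to 4 at 12 weeks.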
